A study of Mus musculus with 4 samples.

Results

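The genes that make, move and break down dopamine, noradrenaline and serotonin were followed in brain RNA of mice lacking Atm. The set was given as 10 genes, and every probe of the array's value table annotated to one of them was taken, which gave 16 of 45281 probes. The array's annotation names 19057 genes in all. The members are Th, Ddc, Dbh and Tph2 among synthesis enzymes, Slc6a2, Slc6a3 and Slc6a4 among plasma membrane transporters, the vesicular transporter gene Slc18a2, and the monoamine oxidase genes Maoa and Maob. The study hybridised 4 Illumina bead arrays, 2 with Atm-/- and 2 with Atm+/+ brain total RNA, to compare the genotypes. Both genotypes shared a mixed 129J x C57BL/6 background. The kinase encoded by Atm responds to broken DNA, and people who lack it develop ataxia-telangiectasia, a neurodegenerative disease. Which Atm allele was used, how old the mice were, their sex, the brain part dissected and any treatment are not stated in the labels. It is also not stated that samples sharing a genotype are from separate mice, so the p-values reflect only how far these samples differed from each other, and that spread may be technical.

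Dopamine and noradrenaline are both made from tyrosine. Tyrosine hydroxylase, encoded by Th, takes the first and rate-limiting step, aromatic L-amino acid decarboxylase, encoded by Ddc, makes dopamine, and dopamine beta-hydroxylase, encoded by Dbh, turns dopamine into noradrenaline. Serotonin is made from tryptophan by the neuronal tryptophan hydroxylase Tph2 and then by the same decarboxylase. Slc18a2 loads all these amines into vesicles, while Slc6a2, Slc6a3 and Slc6a4 take noradrenaline, dopamine and serotonin back up. The cell bodies that transcribe most of these genes are few and sit in the midbrain and hindbrain: dopamine neurons in the ventral midbrain, serotonin neurons in the raphe nuclei and noradrenaline neurons in the locus coeruleus and medulla. Smaller groups of Th-expressing cells lie in the hypothalamus and olfactory bulb.

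Promoter sequences are shown for 3 of the genes lower in Atm-/- brain, because they carry short elements near the start site. They come from RefSeq, build GRCm38.p6, on the gene's own strand, and run from 250 bases before the start site to 30 bases after it. Capitals mark TGACGTCA, the cAMP response element, in Th (chr7:142899966-142900245, minus strand) and Slc18a2 (chr19:59260628-59260907, plus strand), and TATAAA, the TATA box, in Tph2 (chr10:115184993-115185272, minus strand).
Th: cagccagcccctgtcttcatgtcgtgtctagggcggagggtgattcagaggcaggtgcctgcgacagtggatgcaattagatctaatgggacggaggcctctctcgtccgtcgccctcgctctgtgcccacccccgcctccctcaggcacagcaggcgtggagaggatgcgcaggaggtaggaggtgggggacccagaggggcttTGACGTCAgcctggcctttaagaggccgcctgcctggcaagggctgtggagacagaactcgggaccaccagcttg
Slc18a2: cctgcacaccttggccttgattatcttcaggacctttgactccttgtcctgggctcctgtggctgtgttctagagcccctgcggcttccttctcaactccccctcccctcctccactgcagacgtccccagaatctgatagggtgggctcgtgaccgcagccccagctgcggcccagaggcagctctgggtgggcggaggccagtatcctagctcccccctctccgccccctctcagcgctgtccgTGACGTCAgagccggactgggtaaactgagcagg
Tph2: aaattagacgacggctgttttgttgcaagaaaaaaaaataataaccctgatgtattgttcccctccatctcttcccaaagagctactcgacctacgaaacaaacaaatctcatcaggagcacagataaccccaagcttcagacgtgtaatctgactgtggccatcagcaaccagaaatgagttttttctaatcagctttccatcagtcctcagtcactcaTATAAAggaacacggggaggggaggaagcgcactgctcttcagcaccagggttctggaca

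RefSeq held 9 promoters for 8 of the members. TGACGTCA, which reads the same on both strands, began at position -45 in Th and at position -4 in Slc18a2, so that it crosses the start site there. It lay in 2 of the 8 member genes and in 1.74% of all 32851 promoter windows of the same length. TATAAA, searched on both strands, began at position -30 in Tph2, was also found on the reverse strand of 1 of the Ddc promoters, and lay in 13.1% of all windows. The GC box GGGCGG, searched on both strands, was in 5 of the 8 genes (Th, Slc6a3, Slc6a4, Slc18a2 and Maoa) and in 34.7% of all windows. None of these matches overlapped another. A match describes the letters of the window and is no evidence that a factor binds there.

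Monoamine genes were lower in Atm-/- brain. Th, Ddc, Dbh, Tph2, Slc6a2, Slc6a4 and Slc18a2 fell, Maob did not pass the test, and Slc6a3 and Maoa were too dim to be tested. None of the 8 tested members rose. Among the genes that fell and were above background on all 4 arrays, the log2 changes were -1.32 for Th, -1.39 and -1.49 at the probes of Ddc, and -2.24 for Tph2. Dbh, Slc6a2 and Slc18a2 were at background in Atm-/- brain, so that only a lower bound of their change was measured, which was widest for Slc6a2 at 7.79-fold or more. The Slc6a2 value comes from 1 of its 3 probes, the others being at background on all 4 arrays. In brain tissue, fewer cells of a type and less RNA per cell cannot be told apart. Markers of brain regions also differed widely between the genotypes. For the monoamine genes, an effect of genotype and a difference in the regions sampled cannot be told apart.

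A probe was tested if its log2 signal exceeded a background level of 5.64 on at least 2 of the 4 arrays, and it was called at an adjusted p under 0.05 in limma, with Benjamini-Hochberg adjustment over all 22385 tested probes. Of the 16 member probes 9 were tested, for 8 of the 10 genes, and 8 of the 9 probes were lower in Atm-/- at that threshold, with 0 higher. Over the whole array 13% of tested probes passed, 6.06% lower and 6.98% higher in Atm-/-. The 9 tested member probes all had Atm-/- values below both Atm+/+ values, while over the whole array 59.8% of tested probes were separated, 30.4% with Atm-/- lower and 29.4% with Atm-/- higher. The probes of Dbh, Slc6a2 and Slc18a2 entered the test only through their Atm+/+ arrays, so these counts describe the probes and do not stand for all members. With all 16 probes and the whole array tested and no filter, 5 member probes fell and 0 rose, beside 2.38% of all 45281 probes that fell. Leaving out an array changed the share called lower over the whole array, and it changed the member count except without Atm+/+ replicate 2. Of the 9 probes, 1 fell when Atm-/- replicate 1 was omitted and 3 when Atm-/- replicate 2 was, beside 1.14% and 1.24% of all tested probes. Omission of Atm+/+ replicate 1 gave 9, beside 18.5% of all tested probes, and of Atm+/+ replicate 2 gave 8, beside 16%.

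**Figure D1:**
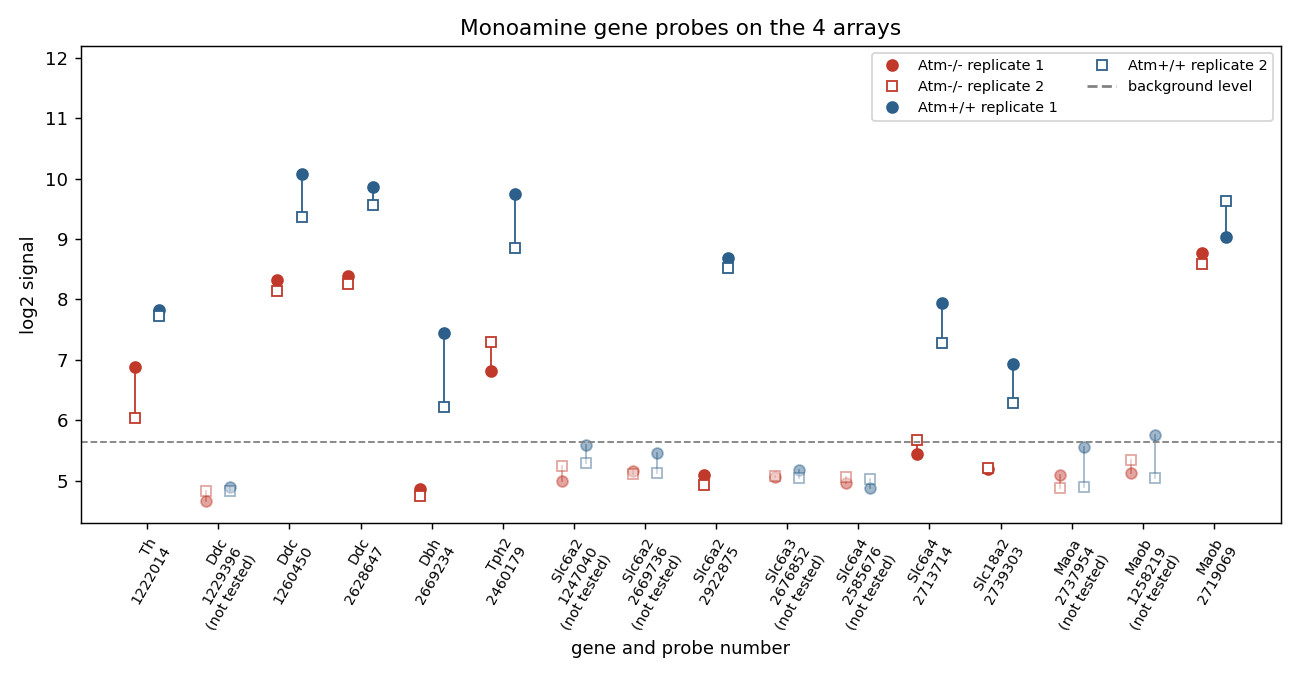
Log2 signal of the 16 member probes (x axis, gene and probe number) on each array, Atm-/- in red to the left and Atm+/+ in blue to the right of each probe, with filled circles for replicate 1, open squares for replicate 2, a line joining the 2 arrays of a genotype, faint symbols for untested probes and a dashed line at the background level of 5.64. Every tested probe has both Atm-/- values below both Atm+/+ values, and the Atm-/- values of Dbh, Slc6a2 and Slc18a2 lie under the dashed line.

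Among the synthesis enzymes, Tph2 of the serotonin pathway had log2 signals of 6.82 and 7.29 in Atm-/- brain, against 9.74 and 8.85 in Atm+/+ brain. It fell by 2.24 ± 0.36 (moderated SE, n = 2 per genotype), a level 4.73-fold lower, at a limma adjusted p of 0.00959. The gap between the genotypes was larger than the gap between the 2 arrays of either. Without Atm-/- replicate 1 the adjusted p was 0.0693.

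Th, shared by both catecholamines, read 6.88 and 6.03 in Atm-/-, against 7.82 and 7.73 in Atm+/+. The change of -1.32 ± 0.33 had the weakest support among the calls (limma adjusted p = 0.0426). Both Atm-/- arrays were below both Atm+/+ arrays, but they lay 0.85 apart, the widest gap of any tested member probe within Atm-/-. The adjusted p was up to 0.443 without an Atm-/- array, the call being lost without either, and 0.0859 with no filter.

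Ddc, which serves all 3 transmitters, has 3 probes. ILMN_2628647 gave 8.38 and 8.26 in Atm-/-, against 9.86 and 9.57 in Atm+/+, a change of -1.39 ± 0.26 (limma adjusted p = 0.0158). ILMN_1260450 gave 8.32 and 8.14 in Atm-/-, against 10.08 and 9.36 in Atm+/+, a change of -1.49 ± 0.31 (limma adjusted p = 0.0242). These probes, annotated to the same RefSeq transcript, gave falls that differed by less than the SE of either. The remaining probe, ILMN_1229396, annotated to a cDNA clone, was at background on all 4 arrays and untested. Omitting either Atm-/- array ended both calls, at adjusted p up to 0.209 and 0.211, and that of ILMN_1260450 also with no filter (adjusted p = 0.0509).

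Dbh, the marker enzyme of noradrenaline neurons, was at background in Atm-/- (4.87 and 4.74), against 7.44 and 6.22 in Atm+/+. Since a dim probe sets only a bound, its level was at least 2.28-fold lower, the Atm+/+ mean being set against the background level. The fitted change was -2.02 ± 0.41 (limma adjusted p = 0.0207). Both values turned on which Atm+/+ array was used: without replicate 1 the bound was 1.49-fold and the fitted change -1.41, and without replicate 2 they were 3.48-fold and -2.63. The Atm+/+ arrays lay 1.22 apart, the widest gap of any tested member probe within a genotype, and the call was lost without either Atm-/- array (adjusted p up to 0.102) and with no filter (adjusted p = 0.0643).

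Among the plasma membrane transporters, Slc6a2, which clears noradrenaline, had the lowest adjusted p of the set. Its probe ILMN_2922875 was at background in Atm-/- (5.10 and 4.93), against 8.68 and 8.52 in Atm+/+. The level was at least 7.79-fold lower, and the fitted change was -3.59 ± 0.25 (limma adjusted p = 0.000534). Each genotype's arrays agreed within 0.17, and the call held whichever array was left out, at adjusted p up to 0.00222. The other Slc6a2 probes, ILMN_1247040 and ILMN_2669736, annotated to the same RefSeq transcript, were at background on all 4 arrays, with values of 4.99 to 5.24 in Atm-/- and 5.12 to 5.59 in Atm+/+.

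Slc6a4, the serotonin transporter, read 5.43 and 5.67 in Atm-/- at ILMN_2713714, against 7.93 and 7.27 in Atm+/+. Of the Atm-/- arrays 1 was above background, and only just, so the change of -2.05 ± 0.31 (limma adjusted p = 0.00737) is close to a bound. The groups did not overlap. Omitting Atm-/- replicate 1 ended the call (adjusted p = 0.0687). Its other probe, ILMN_2585676, annotated to a cDNA clone, was at background on all 4 arrays.

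The dopamine transporter gene Slc6a3 was at background on every array, at 5.06 and 5.07 in Atm-/- and 5.17 and 5.04 in Atm+/+. Its groups overlapped. No difference in the gene that marks dopamine neurons most specifically was measurable with its 1 probe.

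Slc18a2, the vesicular transporter common to all the amine neurons, was at background in Atm-/- (5.19 and 5.21), against 6.93 and 6.29 in Atm+/+. Its level was at least 1.96-fold lower, and the fitted change was -1.41 ± 0.30 (limma adjusted p = 0.0247). The Atm-/- arrays were nearly equal, the Atm+/+ arrays lay 0.64 apart, and the call was lost without either Atm-/- array (adjusted p up to 0.206).

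The monoamine oxidases are the enzymes of the outer mitochondrial membrane that break the amines down. Maob, found in astrocytes as well as in serotonin and histamine neurons, read 8.77 and 8.58 in Atm-/- at ILMN_2719069, against 9.03 and 9.64 in Atm+/+. The difference of -0.66 ± 0.30 did not pass (limma adjusted p = 0.189), and its 95% interval was -1.36 to 0.04. The 2 genotypes did not overlap, and the gap between the Atm+/+ arrays was nearly as large as the difference. Without Atm+/+ replicate 1 the adjusted p was 0.00922. The other Maob probe was above background on 1 array and Maoa, the oxidase of catecholamine neurons, on none: Maoa read 5.10 and 4.87 in Atm-/- and 5.55 and 4.89 in Atm+/+.

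Set side by side by transmitter, the noradrenaline genes Dbh and Slc6a2, the latter at 1 of its 3 probes, exceeded background on both Atm+/+ arrays only. The other Slc6a2 probes and the dopamine gene Slc6a3 were at background in both genotypes. The serotonin genes Tph2 and Slc6a4 fell by 2.24 and 2.05, and Tph2 stayed above background in Atm-/-. Of the genes shared between transmitters, Th and Ddc had fitted changes of -1.32 to -1.49, Slc18a2 was at background in Atm-/-, and Maob had a difference of -0.66. Whether these changes differ from gene to gene was not tested.

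The gap between the arrays of a genotype was wider in Atm+/+ than in Atm-/- for 7 of the 9 tested member probes. It was wider in Atm-/- for Th, at 0.85 against 0.09 in Atm+/+, and about equal for Slc6a2, at 0.17 against 0.16 in Atm+/+. The probes of Dbh, Slc6a2 and Slc18a2 were at background on both Atm-/- arrays. For the 9 tested probes the gap between arrays was 0.02 to 0.85 with a median of 0.18 in Atm-/-, and 0.09 to 1.22 with a median of 0.64 in Atm+/+. Over all tested probes the median gap was 0.19 in Atm-/- and 0.40 in Atm+/+. In Atm+/+, 8 of the 9 probes were higher on replicate 1, the exception being Maob, while 49.4% of all tested probes were higher on that array. In Atm-/-, 6 of the 9 were higher on replicate 1, against 51.6% of all tested probes.

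Genes around the pathway were also mostly lower, but few passed. The lists hold 30 further genes, of which 25 have a probe and 17 were tested. In all, 3 of the 17 fell and 0 rose, beside 6.89% of 12231 tested genes that fell and 7.5% that rose when each gene was represented by its brightest probe. The median change of the 17 was -0.62, against -0.01 over all tested genes. Without either Atm-/- array 1 of the 17 fell, and without an Atm+/+ array 7 or 8 did.

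Of the 9 tested genes that supply tetrahydrobiopterin or otherwise support the enzymes, 1 fell and 0 rose. Dnajc12, a co-chaperone of the aromatic amino acid hydroxylases, had 8.64 and 8.73 in Atm-/-, against 10.17 and 10.26 in Atm+/+, a change of -1.53 ± 0.25 (limma adjusted p = 0.00969). Gch1, the first enzyme of tetrahydrobiopterin synthesis, differed by -0.62 ± 0.43 (adjusted p = 0.381) and Qdpr, which recycles the cofactor, by -0.92 ± 0.45 (adjusted p = 0.218). Cyb561, which passes electrons into amine vesicles, differed by 0.25 ± 0.26 (adjusted p = 0.565). These last 3 did not pass and were picked as examples with their values known.

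Of the other amine synthesis enzymes 1 was tested. Hdc, which makes histamine, had 8.83 and 8.43 in Atm-/-, against 10.78 and 10.05 in Atm+/+, and fell by 1.78 ± 0.33 (limma adjusted p = 0.0157). Tph1, Pnmt and Aanat, of peripheral serotonin, adrenaline and melatonin synthesis, did not exceed background on any array. Of the other amine transporters the low-affinity carrier gene Slc29a4 was tested, and its difference of -0.45 ± 0.30 did not pass (adjusted p = 0.350).

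Among 6 tested genes of other breakdown steps, 1 fell and 0 rose. Aldh1a1, an aldehyde dehydrogenase that marks a subset of midbrain dopamine neurons and also makes retinoic acid, had 7.72 and 8.43 in Atm-/-, against 11.32 and 10.82 in Atm+/+. Its level fell and was 7.98-fold lower (SE of the log2 change 0.34, limma adjusted p = 0.00241). Aldh2, the mitochondrial dehydrogenase that oxidises amine aldehydes, differed by 0.38 ± 0.26 (adjusted p = 0.369).

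**Figure D2:**
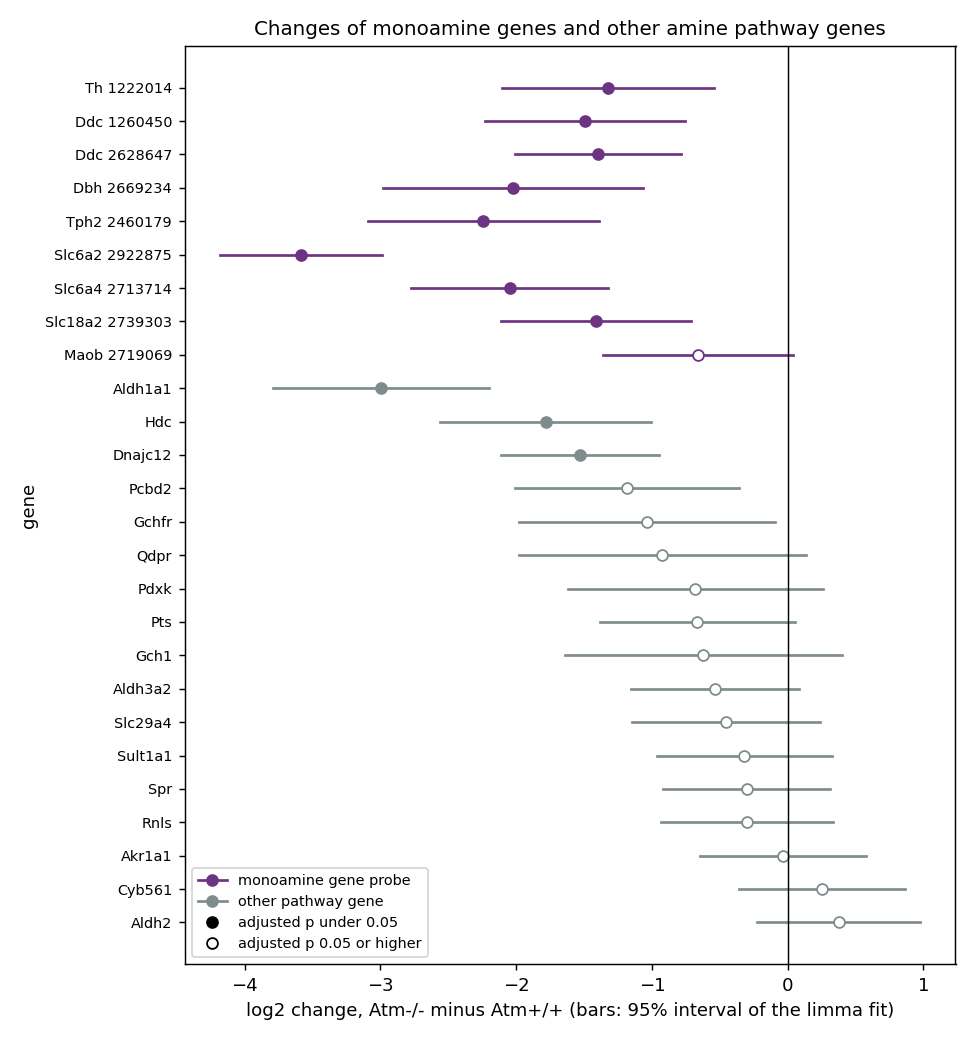
Log2 change, Atm-/- minus Atm+/+, of the 9 tested monoamine probes (purple) and the 17 tested genes of the surrounding pathway (grey, brightest probe of each gene), with 95% intervals of the limma fit as bars and filled points for an adjusted p under 0.05. The 8 called monoamine probes lie between -1.32 and -3.59, where the fitted changes of Dbh, Slc6a2 and Slc18a2 are set against Atm-/- signal at background, and of the pathway genes Aldh1a1, Hdc and Dnajc12 are filled.

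Markers of the amine neurons themselves gave a mixed picture outside noradrenaline. For noradrenaline neurons 3 of 5 listed genes were tested and all 3 fell. Over all tested genes 6.89% fell and 7.5% rose. Tfap2b, a transcription factor gene, changed by -4.19 ± 0.25 at its brightest probe (limma adjusted p = 0.000321), and 3 of its 5 tested probes fell. Gal, encoding the peptide galanin, read 6.09 and 5.54 in Atm-/-, against 9.67 and 9.96 in Atm+/+ (limma adjusted p = 0.000566). Phox2a, the homeobox factor that sets up noradrenaline neurons, changed by -1.06 ± 0.25 (limma adjusted p = 0.0349). Phox2a was at background in Atm-/- and at least 1.52-fold lower, and it entered the test only through its Atm+/+ arrays. Tfap2b is also used by cerebellar cells, and Gal by hypothalamic cells. The summed linear signal of the 3 genes was 153 to 175 in Atm-/- and 2239 to 2288 in Atm+/+. The Atm+/+ sums come mostly from Tfap2b (log2 10.39 and 10.25) and Gal, as Phox2a was far dimmer (6.32 and 6.18).

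For dopamine neurons 7 of 10 were tested, of which 2 fell, 1 rose and 4 did not pass. En1, a midbrain-hindbrain homeobox gene, fell to background, at least 7.36-fold, and Ret, a receptor for glial cell line-derived factors, fell by 3.47 ± 0.27 (limma adjusted p = 0.000670). Nr4a2, required for dopamine neurons and also expressed in cortex, rose by 2.65 ± 0.25 (adjusted p = 0.00123). Pitx3, the factor most restricted to midbrain dopamine neurons, was at background on all 4 arrays. The summed signal of the list was 881 to 949 in Atm-/- and 1799 to 2195 in Atm+/+.

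For serotonin neurons 5 of 7 were tested, of which 1 fell, 1 rose and 3 did not pass. Nkx2-2, a ventral hindbrain factor also used by oligodendrocyte precursors, fell by 2.07 ± 0.38 (limma adjusted p = 0.0146), while the serotonin receptor gene Htr1a, expressed in raphe and in hippocampus and cortex, rose by 1.09 ± 0.26 (adjusted p = 0.0378). Fev, the raphe-specific factor, was not analysed here. The summed signal was 945 to 1021 in Atm-/- and 1148 to 1749 in Atm+/+. In Atm+/+ the brightest of these genes was Nkx2-2, at log2 signals of 9.23 and 10.32, so the sums depend strongly on it. By direction alone, 3 of the 5 were higher and 2 lower in Atm-/-, with a median change of 0.003.

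Brain-region markers moved in the same samples. Of 11 tested markers of hindbrain and spinal cord, out of 15, 9 fell and 0 rose, with a summed signal of 471 to 583 in Atm-/- and 4347 to 7544 in Atm+/+. Of 9 tested cerebellar markers, out of 12, 8 fell and 0 rose, with sums of 6560 to 7055 in Atm-/- and 84668 to 96195 in Atm+/+. All 9 tested markers of cortex, hippocampus and striatum, out of 14, rose, with sums of 59536 to 66428 in Atm-/- and 3934 to 6010 in Atm+/+. Of 4 tested hypothalamic markers, out of 10, Hdc fell and the others did not pass. Over all tested genes 6.89% fell and 7.5% rose. Of the called markers, Hoxa2, Hoxa5, Hoxb2, Hoxb4, Hoxb5, Hoxb6, Hoxd4, Pcp2, Gabra6 and Zic2 entered the test only through their Atm+/+ arrays. Tbr1, Emx1, Icam5 and Drd1 entered it only through their Atm-/- arrays. These counts therefore describe the tested genes and do not stand for all listed markers. Sums are of linear signal over the tested genes. Markers not above background on any array were Slc6a5, Hoxc4, Hoxc5, Calb1, Car8 and Neurod6, and of the hypothalamic genes Avp, Hcrt, Pomc and Sim1. Most of the monoamine genes are transcribed mainly in the midbrain and hindbrain. For the change of the set, an effect of genotype and a difference in the regions sampled cannot be told apart with these 4 arrays.

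Markers of other cells moved as well. Of 10 tested astrocyte genes 4 fell, 0 rose and 6 did not pass. Their summed signal was 56763 to 57383 in Atm-/- and 96895 to 106855 in Atm+/+. All 6 tested choroid plexus genes fell, as did 2 of 4 meningeal genes and 1 of 6 oligodendrocyte genes. Cholinergic neuron genes fell in 4 of 5 cases and rose in 1, endothelial and pericyte genes rose in 1 of 6, and 0 of 5 microglial genes passed. Among all tested genes 6.89% fell and 7.5% rose. The part of these cells in the monoamine changes was not tested. Of 6 tested markers of brain tissue, out of 9, 1 rose, 2 fell (Gfap and Aqp4) and 3 did not pass. The neuronal gene Syt1 read 15.68 and 15.78 in Atm-/-, against 14.29 and 13.54 in Atm+/+. Its rise of 1.82 ± 0.32 (limma adjusted p = 0.0124) was opposite in direction to the monoamine genes. The neuronal genes Stmn2 (0.00 ± 0.28, limma adjusted p = 0.997) and Rbfox3 (0.84 ± 0.27, adjusted p = 0.0892) did not pass at their brightest probes. The other tested Rbfox3 probe rose. The myelin gene Mbp read 15.45 and 15.49 in Atm-/- at its brightest probe, against 16.01 and 16.03 in Atm+/+, and did not pass (limma adjusted p = 0.188). Of its 5 tested probes 1 rose and 0 fell. The probes of Snap25 and Tubb3 were at background.

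**Figure D3:**
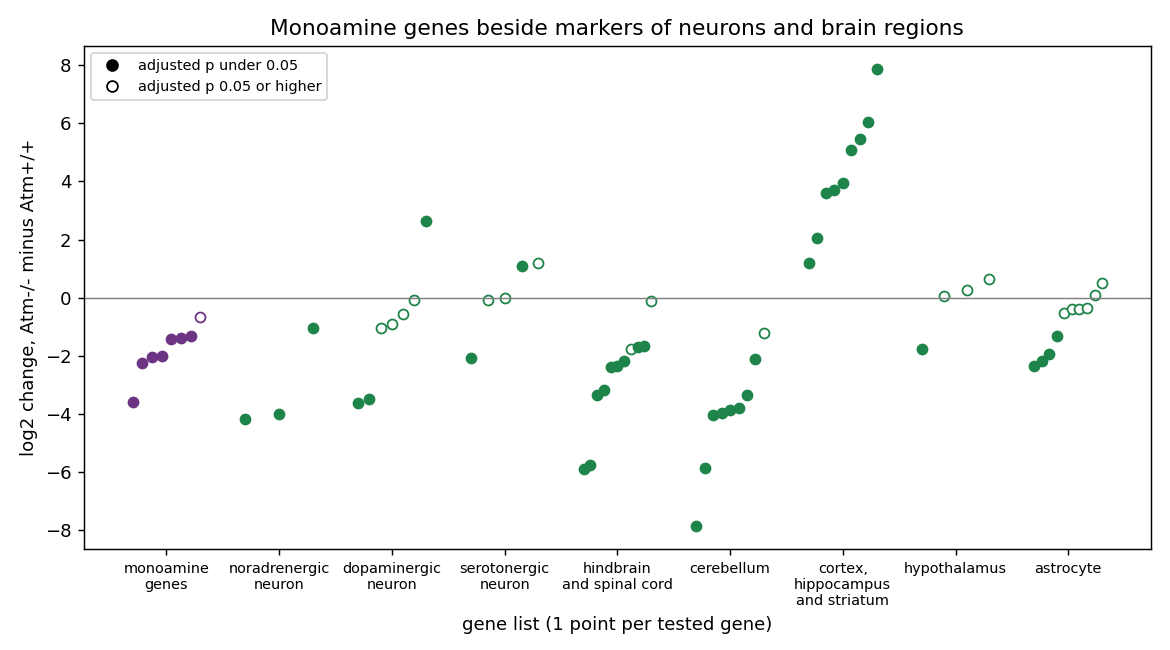
Log2 change, Atm-/- minus Atm+/+, of each tested gene by its brightest probe (1 point per gene) for the monoamine genes in purple and for marker lists of amine neurons, brain regions and astrocytes in green, with filled points for an adjusted p under 0.05. The monoamine genes lie below 0, as do all noradrenergic, hindbrain and cerebellar markers, 6 of 7 dopaminergic markers and 8 of 10 astrocyte genes. Markers of cortex, hippocampus and striatum lie above 0, and serotonergic and hypothalamic markers lie on both sides. Fitted changes of Dbh, Slc6a2 and Slc18a2 are set against Atm-/- signal at background. Several markers were likewise at background in 1 genotype.

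The genes with profiles most like the called members over the 4 arrays were found by Euclidean distance after each probe was centred on its own mean. Slc6a2 was nearest to Atp2c1 (distance 0.101) and Bbox1 (0.207), Tph2 to Epm2aip1 (0.0956) and Scnn1g (0.326), and Slc6a4 to Mapk12 (0.0948) and Fbln1 (0.144). Dbh was nearest to Sparc (0.123) and Spag5 (0.155), Th to Itgae (0.0802) and Ptprr (0.157), Ddc to Gpx3 (0.0614) and Gpx8 (0.0745), and Slc18a2 to Zfhx3 (0.0737) and Grin3b (0.108). The distance covers only 4 arrays in 2 genotypes and is a description.

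The targeted gene checked the labels. Atm probe ILMN_1258206 was at background in Atm-/- (5.59 and 5.27), against 7.75 and 7.84 in Atm+/+, at least 4.46-fold lower (limma adjusted p = 0.00224). ILMN_2783896 fell as well, while ILMN_2492491, with no transcript in the annotation, differed by 0.61 ± 0.37 and did not pass (adjusted p = 0.308). On each array 47.0% to 47.1% of the probes were above background.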

How the data were processed

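Brain RNA of 2 Atm-/- and 2 Atm+/+ samples was measured on 1 Illumina array each. RNA was extracted with Trizol and biotin-labelled with an Ambion kit, per the labels' protocols. The values used are the log2 signals that the authors deposited as processed values. The labels and file headers name no software, background treatment or normalization for them. The log base was inferred from the range of 4.47 to 16.1. Values of equal rank differed between arrays by at most 0.0792, as after quantile normalization, which would hide any common shift of the genes. A table of unnormalized signals has 8 columns whose names match no sample label, and these were not used.

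The background level of 5.64 is the mode of all values (5.05) plus 3 SD (SD 0.195) of the values below the mode. Genotypes were compared by limma 3.58.1 (lmFit, eBayes; R 4.3.3) without covariates, with 2 residual and 5.22 prior degrees of freedom. The code was tested on simulated data. An exact permutation of 2 against 2 samples cannot give a p under 0.333, so none is reported. Symbols came from the platform annotation. Named were all member probes, Atm, called pathway genes, the markers of smallest p for the amine neuron lists, and the nearest profiles. Nr4a2, Phox2a and others named as such were chosen after their values were seen. The members, lists and tests were chosen with earlier results of these data known. The number of arrays limits the precision. Alternatives tried were the filter, the background level, the eBayes prior, the normalization, a replicate block, the probe chosen for a gene and leaving out each array.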

Additional observations from a re-analysis of the deposited data

How the results depend on the processing

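The 8 calls among member probes kept their direction under all alternatives in which they were tested. The filter, the background level, the eBayes prior and the replicate block leave the fitted change as it is. Leaving out 1 array cannot reverse it, as both Atm-/- values lay below both Atm+/+ values. The kept direction is therefore no separate support. The count of called member probes was 5 with no filter, beside 2.38% of all 45281 probes that fell. With only probes above background on all 4 arrays, 4 of 5 tested member probes and 3 of 4 member genes fell. Over the whole array 1164 of 17025 probes fell there. The count of member probes stayed at 8 with the background level at 2 or 5 SD, an intensity trend, a robust prior and arrays centred on the median. It was also 8 with renewed quantile normalization and the replicate block. In these settings 1327 to 2197 probes of the whole array fell, of 18635 to 25822 tested. Leaving out 1 array gave 1 to 9 member probes, 1 to 8 member genes, 1 to 8 other pathway genes and 665 to 8322 probes of the whole array, against 8, 7, 3 and 2919 with all arrays. The low counts came without an Atm-/- array and the high ones without an Atm+/+ array; a lone array is then assumed to vary like the pair that remains. The replicate block gave 4575 probes over the whole array and 6 other pathway genes. Deviations of same-numbered arrays from their genotype means correlated at 0.06, and the labels give no shared litter or batch, so the samples share only a number. The mean of a gene's probes in place of the brightest left 7 member genes. Slc6a2 was called in every setting in which it was tested. The causes of these shifts were not tested, except that the stricter filter removes Dbh, Slc6a2, Slc6a4 and Slc18a2 from the test. Signal near background limits Slc6a3, Maoa and the dim group of the bounded genes.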
